A study of Mus musculus with 12 samples.

Results

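The comparison described here set mouse blood cells that lacked the genes Stat5a and Stat5b against control cells, both after the treatment named in the labels. It rests on 6 of the 12 arrays of the series, chosen by the treatment and genotype stated in the sample labels, with 3 control treated and 3 knockout treated arrays. The other 6 arrays hold the same genotypes without treatment. The design text places the loss of Stat5a and Stat5b in blood cells. The strain, age, Cre driver or other means of deletion, dose, time and number of mice per sample are not given in the sources used here. The labels name the treatment by the letters GMP, which also appear in titles of untreated samples, so the letters could mean an agent or a cell population, while the title of the series names GM-CSF. Titles place the arrays on 3 dates, with 1 array of each of the 4 groups per date, and arrays of a date were compared with each other. No label ties the arrays of a group to different mice, and the p-values below therefore speak only of the spread among these samples, some of which may be technical.

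STAT5A and STAT5B are closely related transcription factors encoded by neighbouring genes. A cytokine receptor such as that of GM-CSF activates the kinase JAK2, which phosphorylates STAT5, and paired STAT5 molecules then enter the nucleus and bind the sequence TTCNNNGAA near their targets. Among the best known targets are Cish and Socs2, whose products bind activated receptors and damp the same signal, and survival and growth genes such as Bcl2l1 and Pim1. In the bone marrow GM-CSF supports the growth of granulocyte and macrophage precursors.

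Granulocyte-macrophage progenitor genes were bright on the treated arrays of both genotypes. All 9 genes of a list that included Mpo, Elane, Prtn3, Ctsg, Kit and Cd34 lay above the median of all values, 70.5, and their summed signal was 73600 to 221097 on control and 74324 to 123990 on knockout arrays. The arrays of date 2 stood apart. The signal of the 3' over that of the 5' end of Actb, a ratio that grows as RNA gets shorter, was 266 on the control and 20.8 on the knockout treated array of date 2, against 1.17 to 2.05 on the other treated arrays. The untreated arrays of date 2 had 59.5 on control and 28.7 on knockout, against 1.14 to 1.51 on the other untreated arrays. The cause of the high ratios was not tested. The knockout treated array of date 2 also carries another number tag in its title than the other arrays of that date, with no meaning given. Xist, which marks female cells, had a signal of 23523 on the control and 5061 on the knockout treated array of date 2, and the Y-linked Eif2s3y had 2.97 and 1802. The control array of that date thus carried the female marker alone and the knockout array both. On date 3 both treated arrays carried both, with Xist at 7932 on control and 7628 on knockout and Eif2s3y at 783 and 1601. On date 1 Eif2s3y had 2324 and 2222, and Xist had 144 and 172. The part of these differences in the results was not tested. The standard deviation of the knockout-minus-control differences over 11815 genes was 1.16 on the log2 scale on date 2, against 0.50 on date 1 and 0.44 on date 3.

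The targeted genes were low on all knockout treated arrays. Stat5a had signals of 872, 375 and 713 on the control arrays of dates 1, 2 and 3 and of 44.3, 37.0 and 26.7 on the knockout arrays. The log2 difference, knockout minus control, was -3.70 ± 0.39 (SE; limma, adjusted p = 0.0122). Stat5b had signals of 1178, 287 and 1046 on control and of 28.4, 1.80 and 60.5 on knockout arrays, a log2 difference of -4.35 ± 0.47 (adjusted p = 0.0122). No knockout array reached the lowest control array for either gene, and the difference was of similar size without treatment, at -3.82 ± 0.39 for Stat5a and -4.28 ± 0.47 for Stat5b. Log2 values were taken after adding 13 to the signal, which understates the change of dim genes. Of 50 genes listed as the nearest 25 on either side of the Stat5 pair in the RefSeq gene order, 32 were tested and 0 passed the threshold by limma, while 2, Dnajc7 and Nkiras2, had an unadjusted p under 0.05. Their median log2 difference was -0.02.

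Loss of Stat5 was accompanied by lower signals of a small set of genes in treated cells. Of the 11815 genes tested, 13, or 0.110%, passed an adjusted p of 0.05 (limma, Benjamini-Hochberg adjustment), and all 13 were lower in the knockout. Beside Stat5a and Stat5b these were Cish, Hs3st3b1, Hbegf, Ffar2, S1pr3, Pkib, Elovl7, Muc13, Dcaf1 and the genes of unknown function E330020D12Rik and 1810065E05Rik. Their log2 differences ran from -4.35 to -1.37. No gene passed in the higher direction by limma, where 591 genes (5.00%) had an unadjusted p under 0.05, against 558 (4.72%) in the lower direction, 9.72% in all. The 13 genes were lower on each of the 3 dates, and on none did control and knockout arrays overlap. Non-overlap with lower knockout values held for 3.74% of all genes tested, and with higher values for 2.45%. The count of 13 depended on the shared estimate of the spread and on the arrays: it was 1, Stat5a, without the array date as a block, 0 when the 6 treated arrays were fitted alone, and 9 without the arrays of date 2, of which Stat5a, Stat5b and Cish were among the 13. Leaving out a single treated array left 2 genes without the control array of date 1, 3 without that of date 2, and 0 without the control array of date 3 or any of the 3 knockout arrays.

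**Figure D1:**
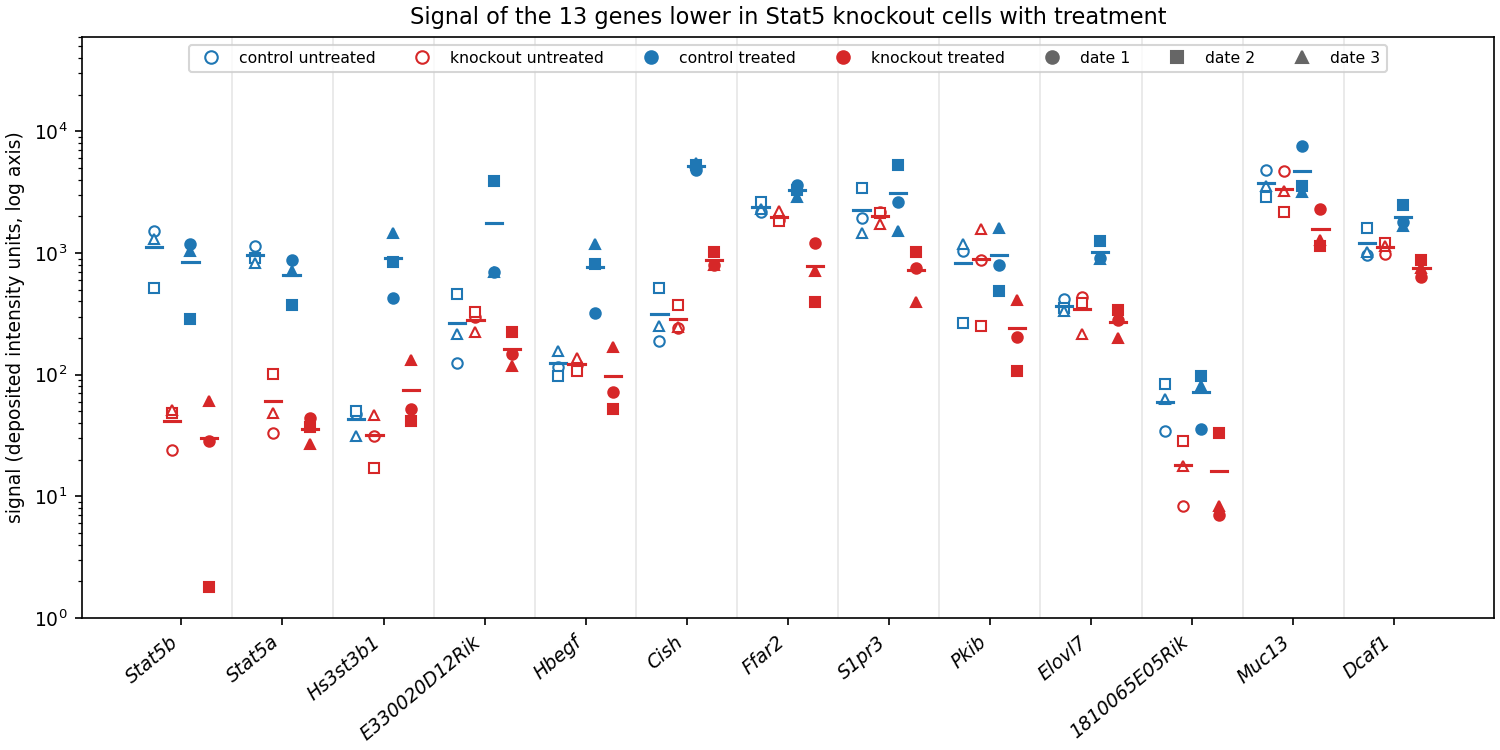
Signal of each of the 13 genes past the threshold (log axis, deposited intensity units) on the 6 treated arrays and the 6 untreated arrays, 1 point per array, with symbols for the array date. The treated knockout points lie below all treated control points of the same gene, from Stat5a and Stat5b to Dcaf1.

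Cish, whose product is a feedback inhibitor of cytokine receptor signalling, was lower on every date by a similar amount, at -2.58, -2.37 and -2.77 on the log2 scale. Control treated arrays gave 4853, 5294 and 5461 and knockout treated arrays 799, 1017 and 792. These were means of 5203 ± 314 and 869 ± 128 (SD, n = 3), and the log2 difference was -2.57 ± 0.26 (adjusted p = 0.0122, limma). Untreated cells had 317 ± 172 in controls and 287 ± 73.9 in the knockout, and these groups overlapped.

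Socs2, the other well known feedback gene, was measured by 6 probe sets, of which 3 passed the filter, and these differed. The brightest by mean log2 signal, which stood for the gene, gave 92.6, 173 and 180 on control and 77.1, 40.7 and 109 on knockout arrays, with overlap and a log2 difference of -0.90 ± 0.36 (adjusted p = 0.513, limma). Another gave 470, 1445 and 718 on control against 34.9, 26.2 and 26.1 on knockout arrays, a difference of -4.26 ± 0.36. The third gave 493, 502 and 919 against 14.9, 43.4 and 51.6, a difference of -3.74 ± 0.33. On both of these the control arrays stood far above every knockout array. Each had an adjusted p of 0.00499 when the 21363 probe sets were tested separately with limma, an alternative added after the data were seen. In that fit 13 probe sets of 10 genes passed, those of Enah and Trio among them. Ffar2, Muc13, Pkib, Dcaf1, E330020D12Rik and 1810065E05Rik then had no set past the threshold. The sets that stood for them had adjusted p of 0.0578 to 0.0705 by limma. With the mean of all passing probe sets of a gene in place of the brightest, Socs2 had a difference of -2.97 ± 0.24 (adjusted p = 0.00297, limma). The second and the third set had untreated means of 13.5 ± 11.9 and 22.6 ± 29.6 in control cells.

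The reference sequences at the starts of some of these genes held the STAT5-type motif TTCNNNGAA, which reads the same on both strands and was searched from 250 bases before to 50 bases after each RefSeq transcript start (GRCm38.p6). Of the 12 called genes with such a window, 3 held it, Cish, Muc13 and Pkib, which is 25%, against 8.34% of the 9623 tested genes that have a window. The called genes had a mean of 1.58 windows each against 1.28 over all tested genes, so more sequence was searched for each. Counted by window, 6.92% of the windows of all tested genes held it. Of the uncalled genes also looked up and described further on, Batf3 held it as well and Enah did not. The sites are shown because they are the matches nearest to the genes of this comparison, with the motif in capitals and each on the plus strand of its chromosome.
Cish, chr9:107296654-107296683: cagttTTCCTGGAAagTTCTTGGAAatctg
Muc13, chr16:33793887-33793915: ttttcaggtaTTCTTGGAAcagcaggtag
Pkib, chr10:57631877-57631905: tgactctgtcTTCGGTGAAcatgcacaga
Batf3, chr1:191098165-191098193: gccacgtgacTTCCACGAAgagcgggggc
Cish carried 2 copies, starting at base 1 and base 12 of the transcript. The motif of Muc13 started at position -140, that of Pkib at -94 and that of Batf3 at -239 relative to the transcript start. A match is a description of the letters, since binding was not measured. Windows of Hs3st3b1, S1pr3, Ffar2, Elovl7 and Dcaf1 held no match within these limits.

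Hs3st3b1 and Hbegf belong to signalling at the cell surface, and both were lower in treated knockout cells. Hs3st3b1 encodes a sulfotransferase that modifies heparan sulfate chains. Its signal was 430, 850 and 1469 on control and 51.9, 41.6 and 132 on knockout arrays, a log2 difference of -3.37 ± 0.41 (95% interval -4.28 to -2.46, adjusted p = 0.0263, limma). All knockout arrays were below the lowest control array, and the control arrays themselves ran from 430 to 1469. This rested on 1 probe set: the 2 other passing probe sets of Hs3st3b1 gave log2 differences of -0.43 ± 0.41 and -0.41 ± 0.28. Hbegf encodes a growth factor of the EGF family that binds heparin. Its signal was 321, 811 and 1186 on control and 71.5, 51.7 and 170 on knockout arrays, a difference of -2.79 ± 0.36 (adjusted p = 0.0313). The knockout arrays were again all below the control arrays, and a second probe set of Hbegf gave -1.89 ± 0.40.

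No other member of the surrounding pathways passed the threshold. Of 20 tested genes of heparan sulfate synthesis and proteoglycans, 1, Hs3st3b1, was called lower and 0 higher, with a list median of -0.01 against 0.01 for all genes. Hpse, the heparan sulfate cleaving enzyme heparanase, had a difference of 1.47 ± 0.31 (adjusted p = 0.233, limma), with 2595, 999 and 2252 on control against 4565, 4507 and 6142 on knockout arrays. Of 16 tested EGF family ligands, receptors and sheddases, 1, Hbegf, was called lower and 0 higher, with a median of -0.24. Nrg1, another ligand of the family, had -1.38 ± 0.41 (adjusted p = 0.456) and Adam8, a membrane protease, 1.41 ± 0.53 (adjusted p = 0.506).

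Receptors for small molecules and lipids formed another group of the 13. Ffar2, a receptor for short-chain fatty acids, had signals of 3657, 3288 and 2872 on control and of 1217, 398 and 710 on knockout arrays, a log2 difference of -2.19 ± 0.33 (adjusted p = 0.0476, limma). S1pr3, a receptor for sphingosine 1-phosphate, had 2619, 5268 and 1521 against 747, 1020 and 398, a difference of -2.02 ± 0.27 (adjusted p = 0.0423). For either gene each knockout array was below every control array, and the difference was largest on date 2. Other probe sets gave -0.84 ± 0.47 for Ffar2 and -1.80 ± 0.43 for S1pr3.

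The remaining genes fall into different functional classes. Pkib, an inhibitor of protein kinase A, had signals of 796, 483 and 1597 on control and 205, 107 and 411 on knockout arrays, a log2 difference of -1.96 ± 0.28 (adjusted p = 0.0472, limma). Its level varied widely from date to date, while the difference on dates 1, 2 and 3 was -1.89, -2.05 and -1.93. Elovl7, an enzyme that lengthens fatty acids, had 912, 1256 and 899 against 280, 338 and 199, a difference of -1.87 ± 0.24 (adjusted p = 0.0313). The 4 other passing probe sets of Elovl7 gave -2.57, -2.45, -2.12 and -1.14. Muc13, a membrane mucin, had 7550, 3550 and 3163 against 2301, 1135 and 1291, a difference of -1.54 ± 0.22 (adjusted p = 0.0472). Dcaf1, a substrate receptor of a ubiquitin ligase, had 1807, 2460 and 1662 against 639, 877 and 747, a difference of -1.37 ± 0.20 (adjusted p = 0.0472). Each of these genes separated the genotypes without overlap.

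The uncharacterised genes differed in how far the arrays carried them. E330020D12Rik had signals of 703, 3940 and 697 on control and of 147, 224 and 118 on knockout arrays, a log2 difference of -2.89 ± 0.42 (adjusted p = 0.0472, limma). The control array of date 2 was far above the others, and the difference was -4.06 on that date against -2.16 and -2.44. The dim 1810065E05Rik had 35.4, 97.7 and 80.8 against 7.02, 33.3 and 8.34, a difference of -1.56 ± 0.23 (adjusted p = 0.0472). Its highest knockout array was just below its lowest control array. Over all 13 genes the difference was largest on date 2 for 6. The 12 other passing probe sets of the 13 genes were all lower in the knockout. They read the same samples, in genes chosen for lower values. Cish, Pkib, Dcaf1, E330020D12Rik and 1810065E05Rik had no other passing set.

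Without treatment most of these differences were small. For the 11 called genes other than Stat5a and Stat5b, the untreated knockout-minus-control difference lay between -1.22 and 0.25 on the log2 scale, and 1, 1810065E05Rik at -1.22 ± 0.23, had an unadjusted p under 0.05. In untreated cells 2 of 11815 genes, or 0.0169%, passed the threshold, Stat5a and Stat5b, and 2.22% had an unadjusted p under 0.05. All 11 genes had a higher mean with treatment than without it in control cells. Their choice by high treated control values favours this, and the response of control cells was not tested. It did not hold on every date. Control Pkib on date 1 had 796 with treatment and 1039 without, and control Muc13 on date 3 had 3163 and 3582. The direct test of whether the knockout effect differed between treated and untreated cells called 0 genes by limma, with 291, or 2.46%, at an unadjusted p under 0.05. Its smallest p was that of Cish, with a difference of effects of -2.53 ± 0.36 (adjusted p = 0.484, limma). The estimates for Hbegf, Hs3st3b1 and Ffar2 were -2.78 ± 0.51, -3.01 ± 0.58 and -1.92 ± 0.46, and that for 1810065E05Rik was -0.34 ± 0.32. These genes were chosen by their treated values, which enter this difference too, so its size for them is a description and does not show dependence on treatment. A 95% interval of this test reached a median of 0.911 to either side, against 0.644 for the treated comparison.

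**Figure D2:**
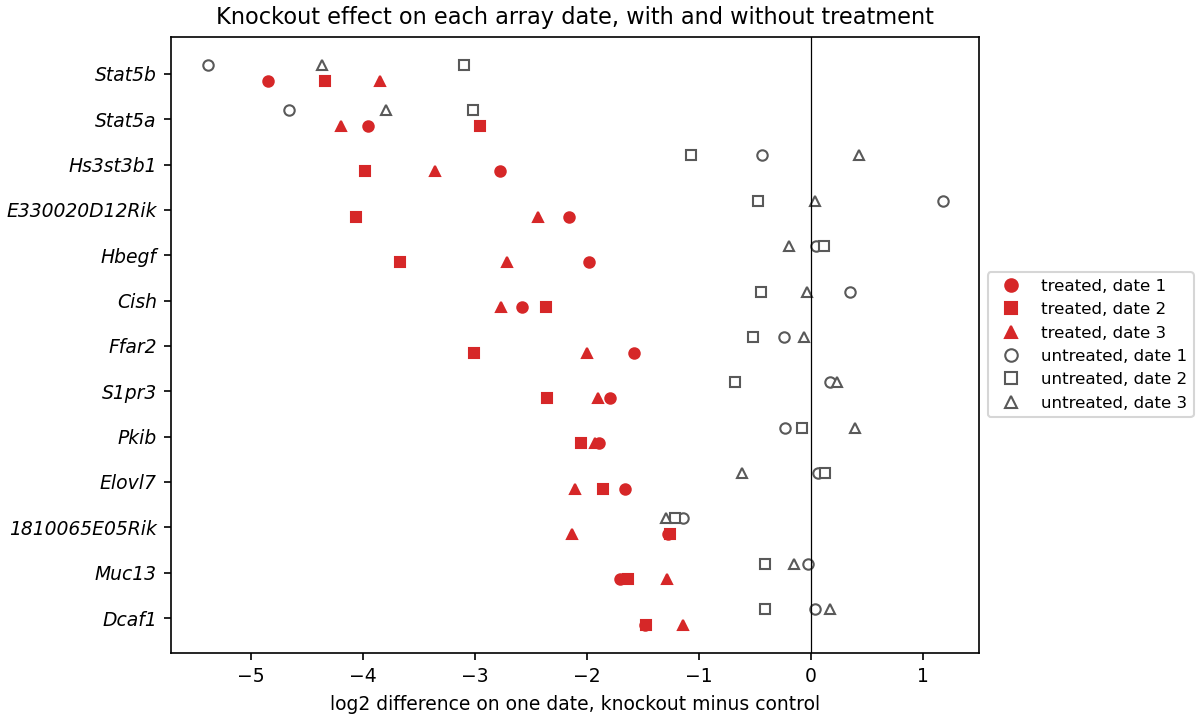
Knockout-minus-control log2 difference of each called gene on each of the 3 array dates (horizontal axis), with filled symbols for treated and open symbols for untreated arrays. Treated differences lie below 0 on every date, while untreated ones below -1 on all 3 dates are those of Stat5a, Stat5b and 1810065E05Rik, with E330020D12Rik at 1.18 on date 1 and Hs3st3b1 at -1.07 on date 2.

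Beyond the called genes, a rule of size without a test took genes that differed by at least 1 on the log2 scale in 1 direction on all 3 dates and were above the median signal in the brighter group. It held for 36 genes, or 0.305%, in the lower direction, the 13 called ones among them, and for 13 genes, or 0.110%, in the higher direction. The genes described from here to the gene lists, other than Batf3 and Irf8, were chosen after their values were seen, and none passed the threshold. Batf3, a transcription factor needed for certain dendritic cells, had signals of 949, 234 and 1092 on control and of 85.8, 13.4 and 104 on knockout arrays. The date differences were -3.28, -3.23 and -3.25, and the log2 difference was -3.25 ± 0.64 (adjusted p = 0.179, limma). Each knockout array was far below the control array of its date, and no knockout array reached a control array. Without the arrays of date 2 the difference was -3.26 ± 0.23 with an adjusted p of 0.00930 by limma, the lowest for Batf3 in any alternative run. That fit kept 3 of the 13 called genes, Stat5a, Stat5b and Cish. Batf3 also passed with a constant of 64 (adjusted p = 0.0463, limma) and with array weights (adjusted p = 0.0170, limma), and under no other alternative. Untreated arrays gave 23.0, 7.75 and 14.3 for control and 19.7, 83.5 and 24.2 for knockout cells, so Batf3 was dim there.

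Several of the lower genes encode regulators of actin or of signalling. Enah, a regulator of actin filaments, had signals of 985, 4962 and 2563 on control and 129, 118 and 217 on knockout arrays, a log2 difference of -3.85 ± 0.61 (adjusted p = 0.0684, limma). Other passing probe sets of Enah gave -1.53 ± 0.28 and -2.78 ± 0.38. The latter had an adjusted p of 0.0404 with probe sets tested separately by limma. Enah also passed with a constant of 64, the mean of passing probe sets, array weights and an intensity trend, and not under the remaining alternatives. Eps8, an adaptor of growth factor receptors that binds actin, had 714, 3917 and 3772 against 106, 663 and 432, a difference of -2.75 ± 0.47 (adjusted p = 0.0898). Rasgrp3, an activator of Ras proteins, had 125, 860 and 526 against 4.42, 166 and 45.4, a difference of -2.82 ± 0.53 (adjusted p = 0.151). Enah separated the genotypes without overlap, while for Eps8 and Rasgrp3 the control array of date 1 was near or below the brightest knockout arrays. Dab2, an endocytic adaptor, had 1938, 3488 and 5881 against 339, 1079 and 1646, a difference of -1.99 ± 0.41 (adjusted p = 0.212).

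Membrane and secreted proteins of immune cells were also in this group. Ifitm1, an interferon-induced membrane protein, had signals of 5611, 22462 and 2958 on control and 1186, 2070 and 983 on knockout arrays, a difference of -2.41 ± 0.40 (adjusted p = 0.0818, limma). The surface glycoprotein Thy1 was the gene next to the threshold, with 227, 532 and 147 against 89.3, 58.7 and 21.4 and a difference of -2.12 ± 0.32 (adjusted p = 0.0561), beside the 0.0476 of Ffar2 just inside it. Neither gene showed overlap, and for both the control array of date 2 was the brightest. The chemokine Ccl17 had 1019, 104 and 201 against 42.6, 38.6 and 29.1, and the chemokine Ccl6 had 1451, 962 and 4557 against 495, 286 and 1487. Their differences were -2.58 ± 0.66 (adjusted p = 0.36) and -1.61 ± 0.31 (adjusted p = 0.151). The mannose receptor gene Mrc1 had -1.84 ± 0.35 and Kmo, an enzyme of tryptophan breakdown, -1.67 ± 0.32, both with an adjusted p of 0.151. The median untreated difference of the 36 lower genes was -0.27, and 3 of them were lower by at least 1 without treatment.

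In the higher direction the 13 genes had adjusted p from 0.0795 to 0.513 by limma, and Cx3cr1 and Lyz2 came from the monocyte and macrophage list. That list also held 1 gene that met the rule in the lower direction. Of its 44 tested genes 19 lay below 0 and 25 above it. Cx3cr1, the receptor of the chemokine fractalkine, had signals of 503, 932 and 1193 on control and 3762, 3187 and 3334 on knockout arrays, a log2 difference of 2.03 ± 0.33 (adjusted p = 0.0795, limma). Its knockout arrays were close to each other and all above the control arrays. Slc11a1, a metal transporter of phagocytic vesicles, had 138, 413 and 387 against 413, 2111 and 847, a difference of 1.64 ± 0.29 (adjusted p = 0.104). Lyz2, the lysozyme of myeloid cells, had 3673, 2161 and 5633 against 7924, 9470 and 11770, a difference of 1.43 ± 0.33 (adjusted p = 0.277). Lyz2 showed no overlap, while the lowest knockout value of Slc11a1 equalled the highest control value to 3 digits. Irf8, a transcription factor of monocyte and dendritic development, had 0.95 ± 0.31 (adjusted p = 0.505) and was higher on all 3 dates but by less than 1 on dates 1 and 3.

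Other genes of the 13 had varied functions, and none passed the threshold. Hmox1, the heme-degrading enzyme heme oxygenase 1, had signals of 112, 13.6 and 403 on control and 878, 759 and 1456 on knockout arrays, a difference of 3.17 ± 0.74 (adjusted p = 0.28, limma). Tnfsf9, a costimulatory ligand, had 170, 160 and 479 against 695, 1100 and 1498, a difference of 2.09 ± 0.36 (adjusted p = 0.0898). P2ry6, a nucleotide receptor, had 4.40, 46.7 and 31.8 against 46.1, 218 and 258, a difference of 2.10 ± 0.36 (adjusted p = 0.0898). Hmox1 and Tnfsf9 separated the genotypes, and P2ry6 was dim on the control arrays. Ccnd1, a G1 cyclin, had 217, 140 and 461 against 789, 826 and 1125, a difference of 1.84 ± 0.45 (adjusted p = 0.316), and the transcription factor Klf2 had 1.93 ± 0.51 (adjusted p = 0.373). The median untreated difference of the 13 higher genes was 0.03, and 0 of them were higher by at least 1 without treatment.

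**Figure D3:**
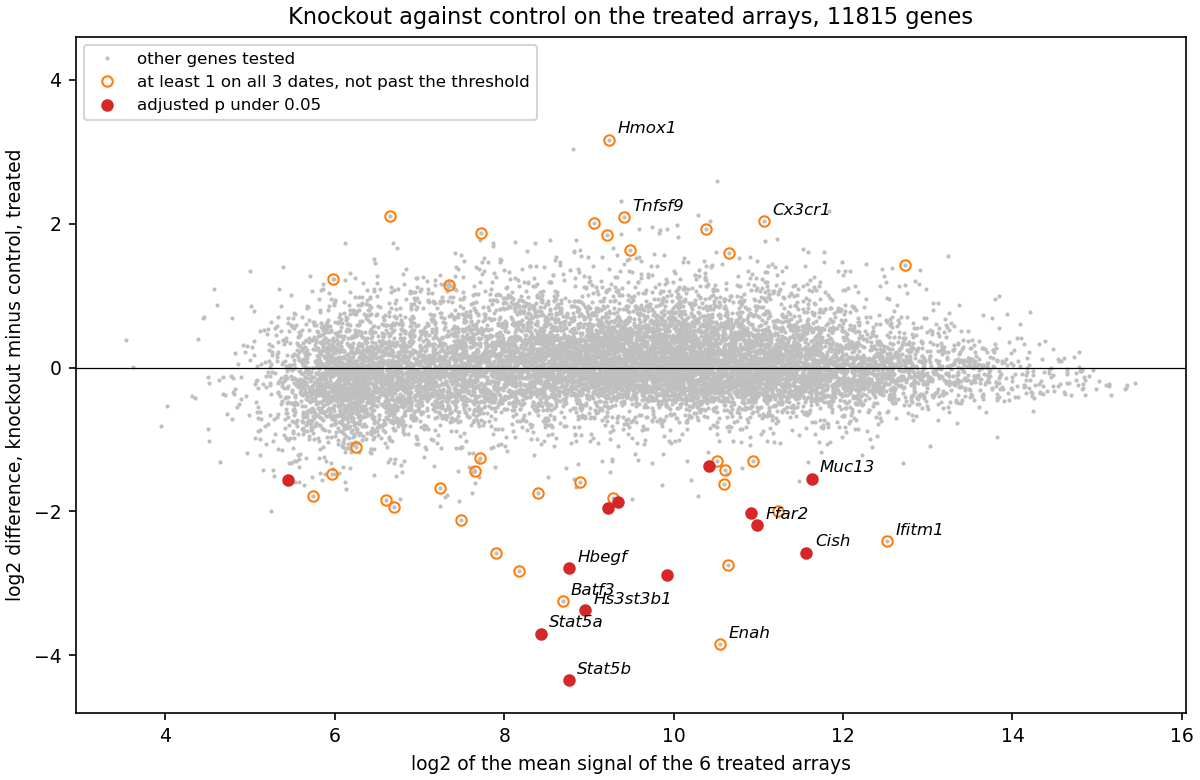
Log2 difference, knockout minus control, on the treated arrays (vertical axis) against log2 of the mean signal of the 6 arrays (horizontal axis) for the 11815 genes tested. Filled red points are the 13 genes past the threshold, all below 0, and open orange circles the genes that met the rule of size without passing it.

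Known targets of STAT5 differed in both directions, and with 1 probe set per gene Cish was the one that passed the threshold. Socs2 did not pass by the set that stood for it, while its other passing sets had -4.26 and -3.74, as described above. In a list of STAT5 feedback and target genes, 24 were tested, 1, Cish, was called lower and 0 higher, and the median was -0.21. At an unadjusted p under 0.05 it held 7 lower and 4 higher genes. Beside such counts, here and in the lists below, stand 4.72% lower and 5.00% higher among all genes tested by limma. Pim1, a survival kinase, had signals of 14146, 12954 and 14479 on control and 9920, 9336 and 11211 on knockout arrays. The groups did not overlap, and the log2 difference was -0.45 ± 0.24 (adjusted p = 0.529, limma), close to the -0.54 ± 0.24 without treatment. Bcl2l1, which encodes the survival protein BCL-XL, had 2246, 1816 and 1361 against 970, 990 and 1088 and a difference of -0.80 ± 0.24 (adjusted p = 0.459). Its control arrays were all above its knockout arrays, whereas the untreated difference was -0.01 ± 0.24. Bcl2, a related survival gene, had -0.69 ± 0.20 (adjusted p = 0.444), Ccnd2, a G1 cyclin, -0.52 ± 0.27 (adjusted p = 0.524), and Myc, a growth regulator, -0.83 ± 0.32 (adjusted p = 0.507). The direction of Ccnd2 depended on the probe set, since its 6 other passing sets ran from -0.63 to 0.48. Mcl1, another survival gene, had 0.35 ± 0.24 (adjusted p = 0.603), and Bcl6, a repressor, 1.49 ± 0.32 (adjusted p = 0.239).

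Receptors and signal carriers upstream of STAT5 did not pass the threshold. Of 28 tested myeloid cytokine receptors 0 were called by limma, 1 was lower and 2 were higher at an unadjusted p under 0.05, and the median was -0.03. Csf2rb, the shared beta chain of the GM-CSF receptor, had signals of 9929, 10348 and 8873 on control and 7436, 9220 and 6325 on knockout arrays, which overlapped, and a log2 difference of -0.36 ± 0.28 (adjusted p = 0.629). Csf2ra, the GM-CSF receptor alpha chain, had 0.31 ± 0.22 (adjusted p = 0.604), and Csf2rb2, the chain specific to IL-3, -0.07 ± 0.40 (adjusted p = 0.957). Of 28 JAK-STAT and receptor-proximal genes 0 were called by limma, with 1 lower and 5 higher at an unadjusted p under 0.05 and a median of 0.37, which was 0.76 on date 2 against 0.07 on date 1 and 0.01 on date 3. Jak2 had -0.75 ± 0.28 (adjusted p = 0.506) and Stat3, a related transcription factor, 0.63 ± 0.28 (adjusted p = 0.516). Without treatment Stat3 had means of 1226 ± 666 in the knockout and 561 ± 114 in control cells (SD, n = 3). Other passing probe sets had the opposite sign for Csf2ra, at -0.16, for Csf2rb, at 0.54, and for 1 of 3 sets of Stat3, at -0.71.

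Granule, lineage and progenitor genes were not called apart from Muc13. Among 19 primary granule genes 0 passed by limma and the median was 0.06, with 2 lower and 1 higher at an unadjusted p under 0.05. Mpo, the myeloperoxidase of primary granules, had signals of 19738, 111812 and 18869 on control and 19054, 56165 and 20697 on knockout arrays and a difference of -0.30 ± 0.25 (adjusted p = 0.643), and Elane, the neutrophil elastase, 0.09 ± 0.32 (adjusted p = 0.930). Away from date 2 the Mpo arrays of both genotypes were nearly level. Of 29 secondary and tertiary granule genes 0 passed by limma, with 0 lower and 3 higher at an unadjusted p under 0.05 and a median of 0.32, which was 0.95 on date 2 against 0.17 and -0.03. Ltf, which encodes lactoferrin, had date differences of -0.47, 2.88 and -0.22, and Camp, an antimicrobial peptide precursor, of 0.22, 2.42 and 0.40, beside fitted differences of 0.73 ± 0.55 and 1.01 ± 0.49. Both were widest on date 2.

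Of 34 stem and early progenitor genes 1, Muc13, was called lower, and the median was -0.05, with -0.52, 0.51 and 0.07 on the 3 dates. Kit, the stem cell factor receptor, had -0.07 ± 0.35 (adjusted p = 0.950, limma), and Cd34, a progenitor surface marker, 0.97 ± 0.45 (adjusted p = 0.518) with a difference of 2.60 on date 2. Dach1, a transcriptional cofactor, had -1.38 ± 0.30 (adjusted p = 0.239) and the homeobox gene Hoxa9 -0.76 ± 0.23 (adjusted p = 0.482). Of 44 monocyte and macrophage genes 0 were called by limma, and 5 were lower and 6 higher at an unadjusted p under 0.05. Csf1r, the M-CSF receptor, had -0.05 ± 0.22 (adjusted p = 0.945), beside 0.21 and 0.36 by its other passing probe sets, and Clec7a, a receptor for fungal glucans, -1.22 ± 0.29 (adjusted p = 0.282). Of 49 myeloid transcription factors 0 were called by limma, with 3 lower and 6 higher at an unadjusted p under 0.05, and Cebpa, a regulator of granulocyte formation, had 0.45 ± 0.38 (adjusted p = 0.657). Of 20 dendritic cell genes 0 were called by limma, with 4 lower and 1 higher at an unadjusted p under 0.05, and among 15 MHC class II presentation genes 0 were called and 1 was higher.

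Growth and stress lists differed in direction without a called member. Of all 11815 genes tested, 5818 lay below 0 and 5997 above it. At an unadjusted p under 0.05 by limma, 4.72% of them were lower and 5.00% higher. Of 73 ribosome biogenesis and MYC-linked growth genes 49 lay below 0, the median was -0.17, and 13 were lower and 0 higher at an unadjusted p under 0.05, while 0 passed by limma. The median was below 0 on each date, at -0.16, -0.36 and -0.08. Wdr43, a ribosome assembly factor, had -1.07 ± 0.25 (adjusted p = 0.286) and Gnl3, a nucleolar GTPase, -1.10 ± 0.33 (adjusted p = 0.452). Of 25 antioxidant genes 21 lay above 0, the median was 0.46, and 0 were lower and 8 higher at an unadjusted p under 0.05, with 0 called by limma. Their median was 0.34, 0.34 and 0.39 on the 3 dates. Besides Hmox1, the group held Srxn1, a reductase of peroxiredoxins, at 1.61 ± 0.50 (adjusted p = 0.487) and Gpx4, a lipid peroxide reductase, at 1.61 ± 0.62 (adjusted p = 0.507). Lists of interferon response genes and of NF-kB genes had medians of 0.43 and 0.49, but these came to 1.12 and 1.18 on date 2 against 0.21 and 0.22 on date 1 and 0.22 and 0.07 on date 3. Of 33 lists, 4 held a called gene, medians ran from -0.24 to 0.70, and date 2 had the largest shift in 23.

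**Figure D4:**
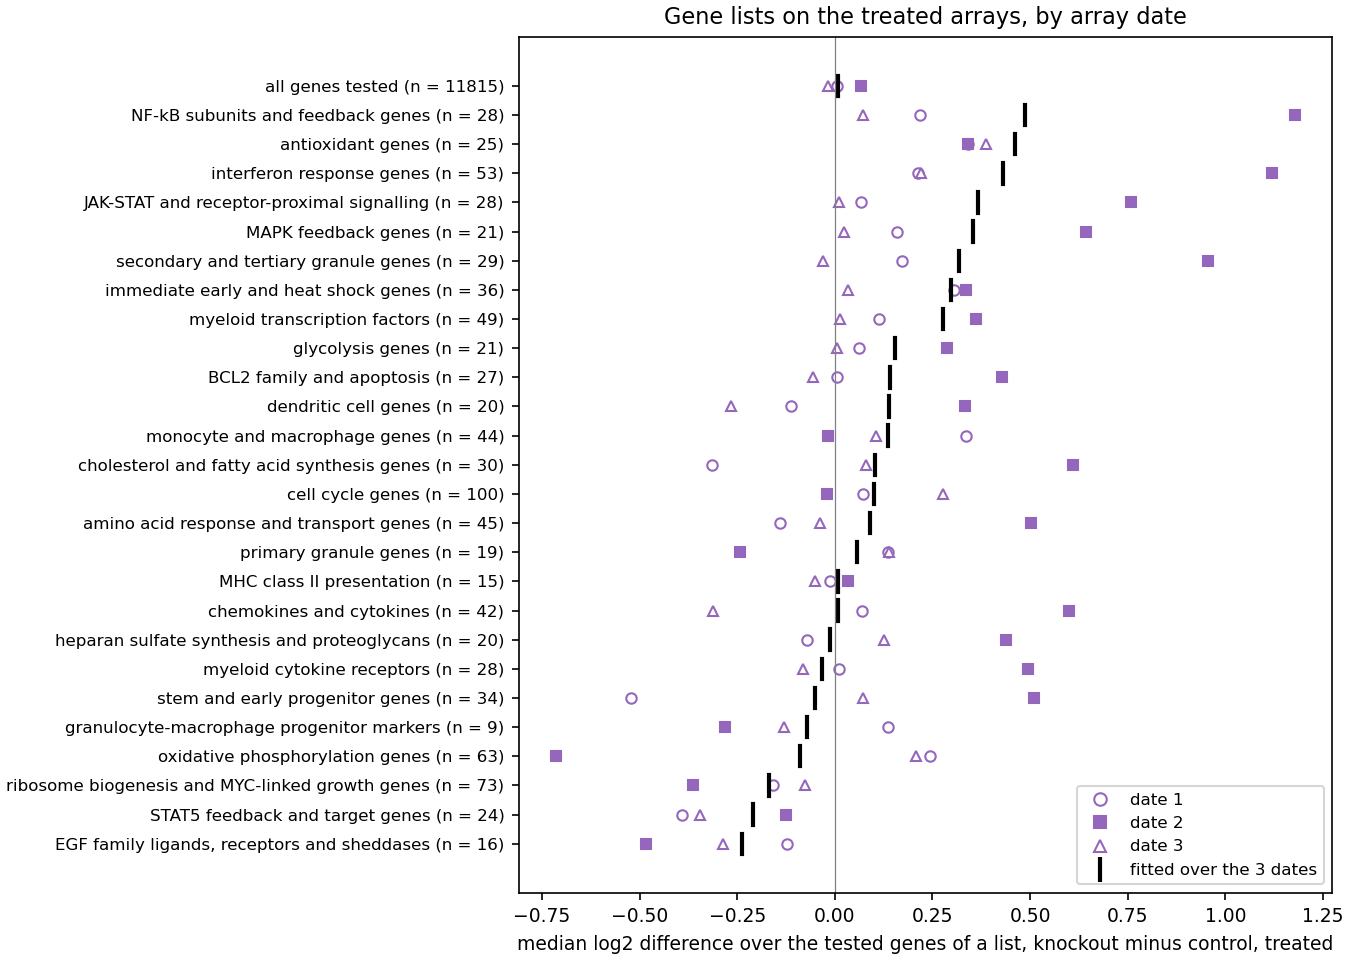
Median knockout-minus-control log2 difference of gene lists on the treated arrays (horizontal axis), by array date and fitted over the 3 dates (vertical marks). The lists of other cells and of sex-linked genes are not drawn. Date 2, in filled symbols, had the largest shift in 23 of 33 lists, a count that includes the lists of other cells. The antioxidant medians, 0.34, 0.34 and 0.39, lie close together.

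Markers of other cells were summed in 7 lists, of which the B lineage, T and NK and erythroid sums differed in 1 direction on all 3 dates. The summed signal of 13 B lineage markers was 4939, 13676 and 5593 on the control and 7852, 26531 and 10020 on the knockout treated arrays, higher on each date. Ighm, the immunoglobulin mu chain, carried much of it, with 4297, 12786 and 4774 against 6890, 25441 and 9222, while Cd79a, Pax5, Ebf1 and Ms4a1 were below the median signal. The sum of 15 T and NK markers was 1174, 1691 and 1702 on control and 1278, 2695 and 2152 on knockout arrays. Cd3d, Cd3e, Cd3g, Cd4 and Cd8a were below the median signal. Il7r had 41.6, 58.2 and 1115 against 56.3, 1021 and 1559, and Gzmb had 669, 282 and 115 against 888, 644 and 220. The higher sum came from Il7r and Gzmb, and without them the sum of the list was lower in the knockout on each date. Thy1, of the same list, was lower in the knockout on each date and carried this. The sum of 12 erythroid markers was 12984, 4799 and 8583 on control and 7959, 3787 and 6196 on knockout arrays. Car2 and Tfrc, which are not confined to red cell precursors, made up nearly all of it, and 7 of the 12 markers, Alas2, Hba-a1 and Slc4a1 among them, were below the median signal. Over the tested genes of the erythroid list the median difference was 0.03, with 0.85 on date 2. The megakaryocyte sum was 27408, 34926 and 23033 on control and 21330, 43965 and 21604 on knockout arrays, and the mast cell, eosinophil and stroma sums likewise went both ways across the dates. Their part in the differences above was not tested. In bulk samples fewer cells of a type and less RNA per cell cannot be told apart, for the called genes as for these markers.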

How the data were processed

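The authors deposited 1 intensity on a linear scale per array and probe set (Affymetrix Mouse430_2, 45101 sets), for which the submitters' processing notes name MAS5, with no version or scaling target given in the sources used here. In these deposited intensity values the mean after trimming 2% at either end was 500.003 to 500.004 on each array, so arrays had been scaled alike, and a broad change within that range shifts the other genes. The number of arrays limits the precision.

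Probe sets with 1 symbol in the platform annotation (34945) were kept, leaving out 932 with several, 9160 with none and 64 controls. Those brighter than the overall median, 70.5, on 3 or more arrays (21363) entered, and the brightest by mean log2 signal stood for each of 11815 genes. Sets whose names end in _x_at, which can cross-hybridize, were used only where a gene had no other passing set, even if they were brighter. limma 3.58.1 in R 4.3.3 was fitted to log2(intensity + 13) over the 12 arrays, with 4 groups and array date as a block. Adjustment of p-values followed Benjamini and Hochberg over all genes, with a threshold of 0.05. The dates in the titles pair the arrays: deviations from group means correlated at 0.357 to 0.753 within a date (18 pairs) and at -0.661 to 0.399 between dates (36 pairs). On simulated data with 200 changed genes, the fit recovered 17.6%, 77.3% and 90.9% of genes changed by 1, 2 and 3 on the log2 scale. There 5 unchanged genes passed as well. The simulated noise was normal and independent, with the same spread for a gene on all dates. In the data date 2 was wider, so these rates need not hold for the real arrays.

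Named genes were Stat5a, Stat5b, Cish, Socs2, Hs3st3b1, Hbegf and Batf3, the 15 largest called differences in each direction with 1 sign on all dates, up to 4 called genes per list, a fixed set of receptors, survival, granule and lineage genes, and the 5 largest called differences between treated and untreated effects each way. Other genes named were chosen after their values were seen. Members and lists were chosen with earlier results of these data known. Alternatives covered the block, the arrays, the constant, the filter, the normalization, the choice of probe set, array weights and an intensity trend. Promoter windows came from RefSeq (GRCm38.p6), and Hbegf and Socs2 were not matched. Figures were drawn with matplotlib 3.10.9.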

Additional observations from a re-analysis of the deposited data

Results flagged for a closer look

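Among probe sets to which the annotation gives no gene, 3 passed the threshold when all passing probe sets other than controls were tested together with limma, and all were lower in treated knockout than in treated control cells. Probe set 1425471_x_at had signals of 595, 942 and 352 on control and 86.3, 20.6 and 44.1 on knockout arrays, a log2 difference of -3.37 ± 0.42 (adjusted p = 0.0290). Probe set 1446245_at had 505, 877 and 835 against 134, 255 and 107, a difference of -2.12 ± 0.27 (adjusted p = 0.0378). Probe set 1441843_s_at had 811, 9602 and 1872 against 185, 1251 and 205, a difference of -2.70 ± 0.38 (adjusted p = 0.0489). The first 2 separated the genotypes on every array, while for the third the knockout array of date 2 was brighter than the control array of date 1.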

How the results depend on the processing

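The number of genes that passed moved with the date block, the arrays, the constant, the filter, the normalization and array weights, while no called gene changed direction under any alternative run. The count of 13 genes in treated cells became 1 without the replicate block, 0 with the 6 treated arrays alone, with or without the block, 2 with a constant of 1, 4 without a filter, 5 after quantile normalization and 27 with array weights. It was 18 with a constant of 64, 16 with an intensity trend, 13 with a stricter filter, 9 with a common median, 10 with the mean of all passing probe sets and 9 without date 2, and 0 to 3 without 1 array. Without date 2 the genes shared with the 13 were Stat5a, Stat5b and Cish, and Batf3 was among the others. With each probe set tested separately, 10 genes had a set past the threshold. Ffar2, Muc13, Pkib, Dcaf1, E330020D12Rik and 1810065E05Rik were then not among them. A constant of 64 and array weights called 2 genes higher each, and the intensity trend and the fit without date 2 called 1 each. Of the 13, 5 (Cish, Stat5a, Stat5b, Hs3st3b1 and Hbegf) kept their call in 1 of the 6 fits that left out 1 array, and the other 8 in 0. In untreated cells the count of 2 became 1 without the replicate block, 0 with a constant of 1, 1 with the mean of probe sets, and 0 to 2 without 1 array. The count of 0 for the difference of effects became 1 with array weights.

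Signs turned only among uncalled genes. Csf1r was 0.090 after quantile normalization, 0.17 with the mean of probe sets, 0.080 with array weights and 0.13 without date 2, and Csf2rb was 0.093 with the mean of probe sets. With array weights Elane was -0.23, Ltf -0.10 and Cebpa -0.13, and without date 2 Mpo was 0.041, Elane -0.017, Ltf -0.34 and Cebpa -0.20. Without 1 array Csf1r lay between -0.20 and 0.080, Csf2rb2 between -0.63 and 0.33, Kit between -0.53 and 0.25, Elane between -0.15 and 0.31 and Ltf between -0.15 and 1.26. The causes were not tested. On arrays the signal over background limits dim genes such as 1810065E05Rik.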
